A study of Homo sapiens with 9 samples.

Results

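The 10 genes described here encode core parts of macroautophagy and were read in TE13 cells, an established line of esophageal squamous cell carcinoma (ESCC), after knockdown of the long noncoding RNA PARylator (LINC00885). They were picked by symbol from the deposited expression table: the kinase ULK1, the lipid kinase subunit BECN1, the phosphoinositide-binding protein WIPI1, the conjugation factor ATG5, the ATG8 family members MAP1LC3B, GABARAPL1 and GABARAPL2, the cargo receptors SQSTM1 and NBR1, and the transcription factor TFEB. Each symbol had a single row, so they are 10 of the 60605 genes listed, and all 10 were among the 21395 genes tested, those averaging 0.1 FPKM or more over all libraries (FPKM are counts scaled for exonic length and library total). Cells received a control siRNA or 1 of a pair of siRNAs against PARylator, called siRNA.1 and siRNA.2, and each condition has 3 libraries of poly(A)+ RNA, 9 in all. The groups share the cell line, and their labels name no other agent, genotype or time. As a model the series is limited to a single line and a single control siRNA.

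In autophagy, a double membrane closes around cytoplasmic material and delivers it to the lysosome. The ULK1 kinase starts the process, the BECN1-containing lipid kinase marks the growing membrane, WIPI proteins read that mark, and the ATG12-ATG5-ATG16L1 complex attaches ATG8 proteins (the LC3 and GABARAP families) to it. Cargo receptors such as SQSTM1 bind ubiquitinated material and ATG8 proteins at once, and TFEB activates many autophagy and lysosome genes when it enters the nucleus. The flow of material depends largely on these proteins' modification and turnover, which mRNA levels do not measure.

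The libraries held between 15337917 and 22559998 counts on genes, of which the 10 genes took between 7279 and 10500. The targeted LINC00885 was counted 6, 7 and 12 times in control, 4, 5 and 2 times with siRNA.1 and 2, 0 and 4 times with siRNA.2. The edgeR log2 values against control were -1.21 for siRNA.1 (adjusted p = 0.376) and -2.33 for siRNA.2 (adjusted p = 0.0659), so the knockdown could not be called at this depth. The paper reported lower PARylator after siRNA transfection of ESCC cells by qPCR, a measure separate from these counts. Mitochondrially encoded genes took between 7.46% and 7.66% of control counts, 4.99% to 5.06% for siRNA.1 and 5.54% to 5.56% for siRNA.2. All 9 squamous epithelial markers looked at were expressed, with summed levels of 661 to 675 FPKM in control, 576 to 604 for siRNA.1 and 569 to 589 for siRNA.2. Single markers moved further than the sum and in both directions. KRT5 was at 134 to 151 FPKM in control, 36.8 to 42.2 for siRNA.1 and 53.8 to 59.1 for siRNA.2, and SOX2 at 10.8 to 12.7, 2.74 to 3.72 and 6.23 to 6.78. EPCAM was at 95.8 to 103 FPKM in control and 129.7 to 141 over the siRNA libraries, and KRT6A at 77.4 to 79.6 and 99.5 to 122. Of 6 blood cell markers, 3 passed the filter. Their summed level with the others was 0.45 to 0.72 FPKM in control against 3.36 to 3.87 and 3.43 to 4.01 with the siRNAs. LYZ was most of the sum in the siRNA libraries (2.61 to 3.32 FPKM) but not in control replicate 2 (0.07 of 0.45 FPKM). HBB was at 0 in every library. Of 6 fibroblast markers 2 passed, with sums of 2.23 to 2.49 FPKM in control, 1.46 to 1.64 for siRNA.1 and 1.50 to 1.72 for siRNA.2, and DCN was at 0 in all but 1 library. Of 4 endothelial markers 2 passed, with sums of 1.20 to 1.54, 0.63 to 0.89 and 0.42 to 0.55 FPKM, and KDR was at 0 in all but 1 library. The part of these markers in the results was not tested.

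In control cells the 10 genes spanned a wide range of levels. MAP1LC3B (15.4 FPKM ± 0.820, SD, n = 3) and GABARAPL1 (15.2 ± 0.567) were highest and their libraries overlapped. SQSTM1 (11.8 ± 0.624), GABARAPL2 (11.6 ± 0.994) and NBR1 (11.0 ± 0.357) followed, each overlapping its neighbour in the order, as did ATG5 (7.50 ± 0.991) and BECN1 (7.27 ± 0.434). ULK1 (2.65 ± 0.0577), WIPI1 (2.11 ± 0.210) and TFEB (0.940 ± 0.190) lay below these, and none of the 3 overlapped a neighbour in the order. MAP1LC3B was above 89.1% of all genes with any FPKM in control, and TFEB above 54.6%. That reference set includes genes below the filter of the tests.

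With siRNA.1, SQSTM1 and MAP1LC3B were higher than in control, and ATG5 and GABARAPL1 were lower. With siRNA.2, MAP1LC3B was again higher, and ATG5, GABARAPL1, ULK1, WIPI1 and TFEB were lower. NBR1, GABARAPL2 and BECN1 passed the test in no comparison. In counts, 4 of the 10 genes passed with siRNA.1 (2 higher, 2 lower) at an adjusted p under 0.05 from edgeR, where 30.3% of all tested genes passed (15.0% higher and 15.2% lower) and 44.8% of genes averaging 1 FPKM or more. With siRNA.2, 6 of the 10 passed (1 higher, 5 lower), against 30.9% of all tested genes (15.8% higher, 15.1% lower) and 45.9% of those averaging 1 FPKM or more. In the direct comparison of siRNA.2 with siRNA.1, 1 of the 10 passed, SQSTM1, which was lower. There 12.2% of all tested genes passed (6.10% higher, 6.06% lower) and 19.3% of those averaging 1 FPKM or more, and leaving out siRNA.1 replicate 3 or siRNA.2 replicate 2 raised the count of the 10 genes to 2. Of the 10 genes, 9 averaged 1 FPKM or more (TFEB did not). Over all 10 genes the median change on the log2 scale was -0.06 for siRNA.1 and -0.14 for siRNA.2, where all tested genes had -0.00056 and 0.0040. Both comparisons with control use the same 3 control libraries, so their values are given side by side and are not independent. In whole cell populations, fewer cells of a kind and less RNA per cell cannot be told apart.

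**Figure D1:**
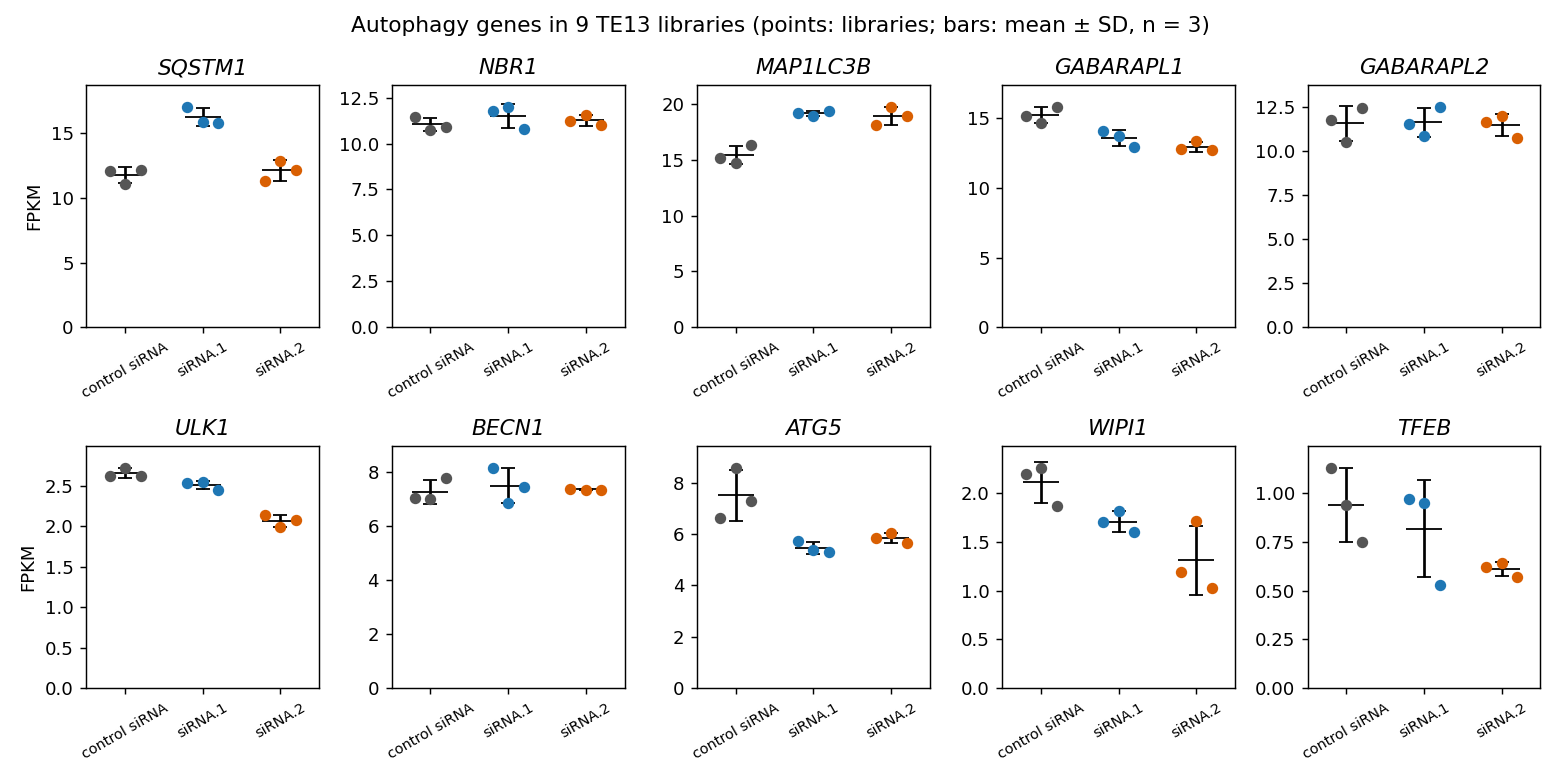
FPKM of the 10 genes in each library of TE13 cells transfected with control siRNA, siRNA.1 or siRNA.2; points are libraries, horizontal lines means and bars SD over 3 libraries, and each y axis starts at 0. MAP1LC3B lies above control in all 6 siRNA libraries, ATG5 and GABARAPL1 lie below it in all 6, and SQSTM1 lies above it in the 3 siRNA.1 libraries while its siRNA.2 libraries overlap control.

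**Figure D2:**
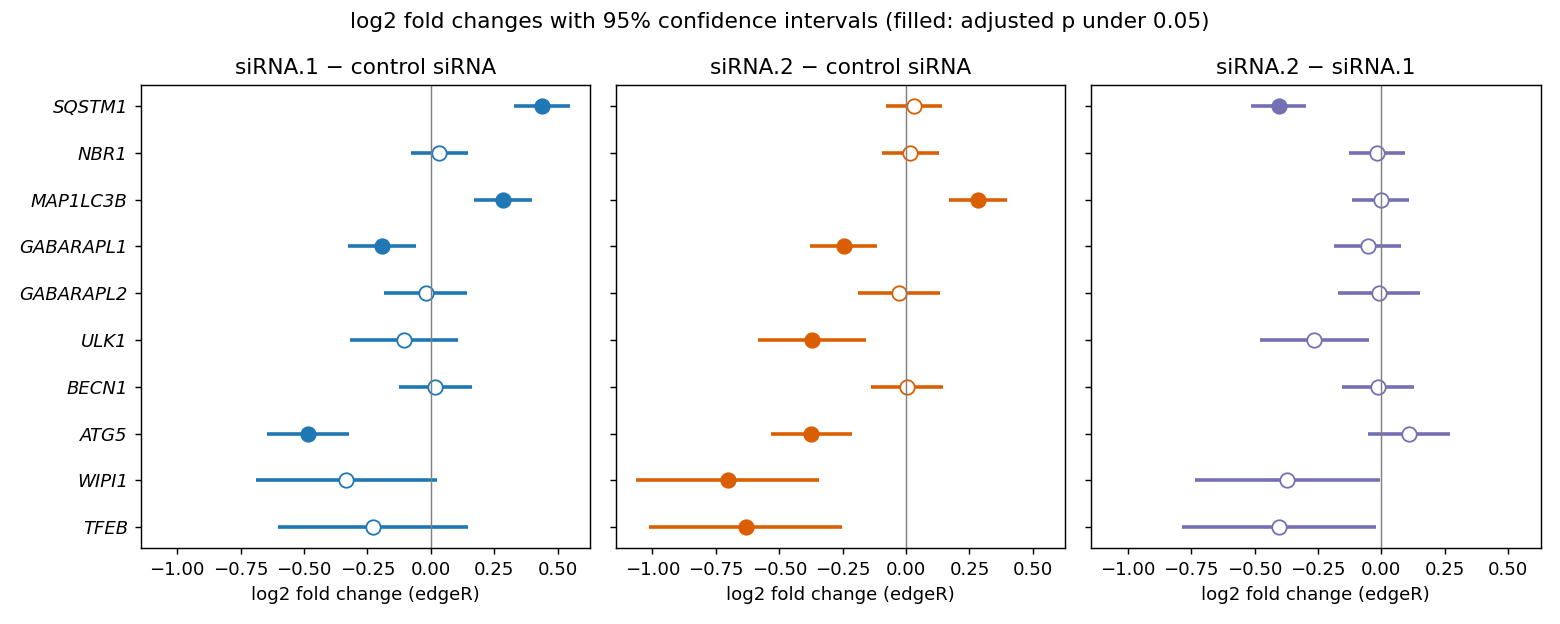
log2 fold changes of the 10 genes from edgeR for siRNA.1 against control, siRNA.2 against control and siRNA.2 against siRNA.1, with 95% confidence intervals; filled points have an adjusted p under 0.05. In the first panel 4 points are filled, in the second 6, and in the third only SQSTM1, at -0.41.

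ULK1 (chr12:131894622-131923150, plus strand, GRCh38, as are all positions here) encodes the serine/threonine kinase that receives nutrient signals from mTORC1 and AMPK and starts autophagosome formation. It measured 2.62, 2.72 and 2.62 FPKM in the control libraries, 2.53, 2.54 and 2.45 with siRNA.1, and 2.13, 1.99 and 2.07 with siRNA.2. The 3 groups did not overlap: every siRNA.2 library was below every siRNA.1 library, and every siRNA.1 library below every control library. The counts were 292 to 357 per library. The log2 fold change was -0.37 with siRNA.2 (SE 0.11, 95% interval -0.58 to -0.16, adjusted p = 0.00323, edgeR), a level of 77.4% of control. With siRNA.1 it was -0.11 (interval -0.32 to 0.11, adjusted p = 0.519, edgeR), and the direct difference between the siRNAs, -0.26 (interval -0.48 to -0.05), did not pass after adjustment (adjusted p = 0.103, edgeR).

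Of the other ULK complex genes, ULK2, the paralogous kinase, moved the other way. It measured 3.03, 2.92 and 2.86 FPKM in control, 4.59, 4.62 and 4.24 with siRNA.1, and 4.15, 4.27 and 4.30 with siRNA.2, and all siRNA libraries were above all control libraries. Its log2 fold changes were 0.58 (adjusted p = 1.98e-11, edgeR) and 0.52 (adjusted p = 1.87e-09). RB1CC1, the scaffold FIP200, was higher with siRNA.1 (0.29, adjusted p = 2.76e-06, edgeR), with 0.11 for siRNA.2 (adjusted p = 0.112). ATG13 and ATG101 passed in neither comparison. In counts, the complex had 2 of 5 genes higher and 0 lower with siRNA.1. With siRNA.2 it had 1 higher and 1 lower, the lower one being ULK1. In either direction that is 40% with each siRNA, against 30.3% and 30.9% of all tested genes. For genes averaging 1 FPKM or more the shares were 44.8% and 45.9%.

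BECN1 (chr17:42810134-42833350, minus strand) encodes Beclin 1, the regulatory subunit of the class III PI3-kinase. It measured 7.04, 7.00 and 7.77 FPKM in control, 8.17, 6.87 and 7.47 with siRNA.1, and 7.39, 7.34 and 7.36 with siRNA.2. All 3 groups overlapped, and the siRNA.2 libraries lay closest together. The log2 fold changes were 0.02 with siRNA.1 (interval -0.13 to 0.16, adjusted p = 0.902, edgeR) and 0.01 with siRNA.2 (interval -0.14 to 0.15, adjusted p = 0.978). Opposite-strand exons of CNTD1 (0.322 FPKM) cover 12.4% of its exonic bases and those of PSME3 (46.6 FPKM) cover 4.68%. Of the 10 genes of the kinase and its regulators, 1 was higher (RUBCN, an inhibitor of the complex, 0.35) and 2 lower (NRBF2, -0.30, and TMEM41B, -0.39) with siRNA.1, and 1 was lower with siRNA.2 (TMEM41B, a lipid scramblase of the endoplasmic reticulum, -0.35). The catalytic subunit PIK3C3 and ATG14, which directs the kinase to autophagy, passed in neither comparison. In either direction 30% and 10% of these 10 genes passed, against 30.3% and 30.9% of all tested genes. Among genes averaging 1 FPKM or more, 44.8% and 45.9% passed.

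WIPI1 (chr17:68420948-68457513, minus strand) encodes a protein that binds the lipid made by this kinase. It measured 2.20, 2.26 and 1.87 FPKM in control, 1.70, 1.82 and 1.60 with siRNA.1, and 1.19, 1.71 and 1.03 with siRNA.2. All 6 siRNA libraries were below the control libraries, and the siRNA.2 libraries were the most scattered (SD 27.1% of the mean). The counts were low, 79 to 120 per library. Against control it was at -0.70 on the log2 scale with siRNA.2 (SE 0.18, interval -1.06 to -0.34, adjusted p = 0.000717, edgeR), the lowest of the 10 genes, at 61.4% of control. With siRNA.1 it was -0.33 (interval -0.69 to 0.02, adjusted p = 0.167, edgeR). The siRNAs differed by -0.37 (adjusted p = 0.223, edgeR), a difference that passed when siRNA.2 replicate 2 was left out (-0.61, adjusted p = 0.0444). Exons of ARSG on the opposite strand cover 24.4% of WIPI1's exonic bases at a mean of 0.323 FPKM, and without strand information reads there cannot be assigned.

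Its homologues WIPI2 and WDR45 were not lower in any comparison with control that passed. WIPI2, which recruits the conjugation machinery, was higher with siRNA.1 (0.23, adjusted p = 8.50e-05, edgeR), with -0.03 for siRNA.2 (adjusted p = 0.722). WDR45, another member of the family, was higher with both (0.44, adjusted p = 0.000749, and 0.35, adjusted p = 0.00898, edgeR). Among the 8 genes for ATG9, ATG2 and WIPI proteins, 2 were higher and 0 lower with siRNA.1, and 1 was higher and 3 lower with siRNA.2, the lipid transfer proteins ATG2A (-0.29) and ATG2B (-0.16) beside WIPI1. In either direction that is 25% and 50% of the 8, against 30.3% and 30.9% of all tested genes. For genes averaging 1 FPKM or more the shares were 44.8% and 45.9%.

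ATG5 (chr6:106045423-106325791, minus strand) encodes the protein joined to ATG12 in the complex that attaches ATG8 proteins to membranes. It measured 6.63, 8.58 and 7.30 FPKM in control, 5.73, 5.38 and 5.28 with siRNA.1, and 5.84, 6.03 and 5.64 with siRNA.2. Every siRNA library was below every control library, and the control libraries were the most scattered (SD 13.2% of the mean, against 4.33% and 3.34%). ATG5 had a log2 fold change of -0.48 with siRNA.1 (SE 0.083, interval -0.65 to -0.32, adjusted p = 6.81e-08, edgeR), or 71.5% of control. With siRNA.2 it was -0.37 (SE 0.081, interval -0.53 to -0.21, adjusted p = 3.09e-05, edgeR), or 77.2%. Leaving out each library in turn gave -0.56 to -0.38 for siRNA.1 and -0.45 to -0.27 for siRNA.2, all past the threshold. The siRNAs differed by 0.11 (interval -0.05 to 0.27, adjusted p = 0.491, edgeR). ATG5 shares no 50-base stretch with another annotated gene and has no overlapping exon.

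ATG5's partners ATG12 and ATG16L1 passed in neither comparison, with log2 fold changes of -0.02 and -0.05 for siRNA.1 and 0.02 and -0.09 for siRNA.2. Of the 10 conjugation genes, 0 were higher and 2 lower with siRNA.1 (ATG5 and the protease gene ATG4C, -0.34), and 1 was higher (ATG3, the E2-like enzyme, 0.18) and 1 lower (ATG5) with siRNA.2. ATG7, the E1-like enzyme, passed in neither. In either direction 20% of the conjugation genes passed with each siRNA, against 30.3% and 30.9% of all tested genes. For genes averaging 1 FPKM or more the shares were 44.8% and 45.9%.

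The 3 ATG8 members behaved differently from each other. MAP1LC3B (chr16:87383953-87404779, plus strand) encodes LC3B, the usual marker of autophagosomes. It measured 15.21, 14.72 and 16.32 FPKM in control, 19.20, 18.94 and 19.38 with siRNA.1, and 18.09, 19.74 and 18.93 with siRNA.2. All 6 siRNA libraries were above the control libraries, and the siRNA groups overlapped. MAP1LC3B had a log2 fold change of 0.29 with siRNA.1 (SE 0.058, interval 0.17 to 0.40, adjusted p = 8.31e-06, edgeR) and 0.28 with siRNA.2 (SE 0.058, interval 0.17 to 0.40, adjusted p = 8.07e-06, edgeR). Between the siRNAs it was -0.0031 (interval -0.11 to 0.11, adjusted p = 0.991, edgeR). The call with control held in each of 19 alternative settings, with values of 0.25 to 0.33 in both comparisons. Of the 50-base stretches in its transcripts, 7.54% also occur in the near-identical MAP1LC3B2.

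GABARAPL1 (chr12:10212458-10223128, plus strand) encodes an ATG8 protein of the GABARAP branch. It measured 15.15, 14.67 and 15.80 FPKM in control, 14.08, 13.69 and 12.94 with siRNA.1, and 12.76, 13.37 and 12.68 with siRNA.2. Every siRNA library was below every control library, and the siRNA groups overlapped. The log2 fold change was -0.25 with siRNA.2 (SE 0.067, interval -0.38 to -0.11, adjusted p = 0.00142, edgeR), or 84.3% of control. With siRNA.1 it was -0.19 (SE 0.068, interval -0.33 to -0.06, adjusted p = 0.0189, edgeR), or 87.5%, and this call was lost without control replicate 3 (-0.16, adjusted p = 0.113) and without siRNA.1 replicate 3 (-0.16, adjusted p = 0.120).

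GABARAPL2 (chr16:75566375-75577881, plus strand), also known as GATE-16, is of the same branch. It measured 11.76, 10.49 and 12.45 FPKM in control, 11.52, 10.85 and 12.50 with siRNA.1, and 11.65, 11.97 and 10.75 with siRNA.2. The groups overlapped throughout. GABARAPL2 had log2 fold changes of -0.02 with siRNA.1 (interval -0.18 to 0.14, adjusted p = 0.902, edgeR) and -0.03 with siRNA.2 (interval -0.19 to 0.13, adjusted p = 0.852, edgeR).

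The windows just upstream of a RefSeq start of MAP1LC3B and GABARAPL1, which moved in opposite directions with both siRNAs, and of SQSTM1, which differed between the siRNAs, are shown from RefSeq (GRCh38.p14) as the 250 bases before the start. Capitals mark the only match to a searched motif.
MAP1LC3B, chr16:87392086-87392335, plus strand: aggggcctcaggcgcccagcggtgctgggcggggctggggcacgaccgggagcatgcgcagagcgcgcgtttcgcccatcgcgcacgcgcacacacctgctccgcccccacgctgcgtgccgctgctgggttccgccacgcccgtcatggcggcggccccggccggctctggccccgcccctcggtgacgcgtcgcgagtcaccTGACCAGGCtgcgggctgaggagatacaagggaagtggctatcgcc
GABARAPL1, chr12:10212627-10212876, plus strand: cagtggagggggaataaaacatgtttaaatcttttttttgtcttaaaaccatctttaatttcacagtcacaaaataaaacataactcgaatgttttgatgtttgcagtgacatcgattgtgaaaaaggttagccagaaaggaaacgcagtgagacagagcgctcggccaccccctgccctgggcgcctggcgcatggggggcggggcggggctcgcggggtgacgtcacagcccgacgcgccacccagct
SQSTM1, chr5:179820655-179820904, plus strand: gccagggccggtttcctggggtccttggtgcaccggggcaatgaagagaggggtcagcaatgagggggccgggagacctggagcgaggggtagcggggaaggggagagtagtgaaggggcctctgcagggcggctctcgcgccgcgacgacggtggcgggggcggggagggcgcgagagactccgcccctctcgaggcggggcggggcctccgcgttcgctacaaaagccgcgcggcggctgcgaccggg
The capitals in MAP1LC3B match TGACNNNGC, the core of the antioxidant response element, with its first base at position -46 from the start. The motifs searched on both strands, in windows of 300 bases from 250 before to 50 after a start, were CACGTG, the E-box core of the element bound by TFEB, TGACNNNGC, and TGATGNAA, the core of the ATF4 composite element. All 10 genes had at least 1 window and had 16 in all. TGACNNNGC matched 1 of these, against 13.3% of 35116 windows of all genes. CACGTG matched 0 of the 16, against 7.26% of all windows, and TGATGNAA 0, against 3.62%. Among all 89 autophagy and lysosome genes with a window, 20.2% held CACGTG, against 8.77% of 27305 genes with one. For TGACNNNGC the shares were 25.8% and 16.1%, so a higher share was not particular to CACGTG. For TGATGNAA they were 2.25% and 4.46%. Genes can have more than 1 window, and these shares per gene do not adjust for that. These matches describe letters in the windows, not bound sites.

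Within the ATG8 family, MAP1LC3B took a larger share in every siRNA library, while the family's sum overlapped between all groups. The summed level of its 7 genes was 73.9 FPKM ± 3.51 (SD, n = 3) in control, 73.7 ± 2.61 with siRNA.1 and 72.5 ± 2.01 with siRNA.2. MAP1LC3B made up 20.9% ± 0.469 of the sum in control, 26.0% ± 0.652 with siRNA.1 and 26.1% ± 0.508 with siRNA.2. GABARAPL1 made up 20.6% ± 0.349, 18.4% ± 1.36 and 17.8% ± 0.168. The ratio of MAP1LC3B to GABARAPL1 was 1.00, 1.00 and 1.03 in the control libraries, 1.36, 1.38 and 1.50 with siRNA.1, and 1.42, 1.48 and 1.49 with siRNA.2. The control libraries lay close to 1, and all siRNA libraries lay above them. Each comparison of the ratio with control gave p = 0.1 in a two-sided exact permutation test, the smallest that 3 against 3 libraries allow.

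Of the other ATG8 genes, only GABARAP passed a test, with siRNA.2. GABARAP, the most abundant member, made up 40.5% ± 0.688 of the sum in control, 36.9% ± 1.25 with siRNA.1 and 37.0% ± 0.727 with siRNA.2. On the log2 scale it differed from control by -0.17 with siRNA.2 (adjusted p = 0.0442, edgeR) and -0.16 with siRNA.1 (adjusted p = 0.0588). MAP1LC3B2 had 0.20 with siRNA.1 (adjusted p = 0.585, edgeR) and 0.38 with siRNA.2 (adjusted p = 0.207). MAP1LC3A (a mean of 0.0956 FPKM) and MAP1LC3C (0.0378) were below the filter. Of the 5 genes tested, 1 was higher and 1 lower with siRNA.1, and 1 was higher and 2 lower with siRNA.2. In either direction that is 40% and 60% of the 5, against 30.3% and 30.9% of all tested genes. For genes averaging 1 FPKM or more the shares were 44.8% and 45.9%.

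**Figure D3:**
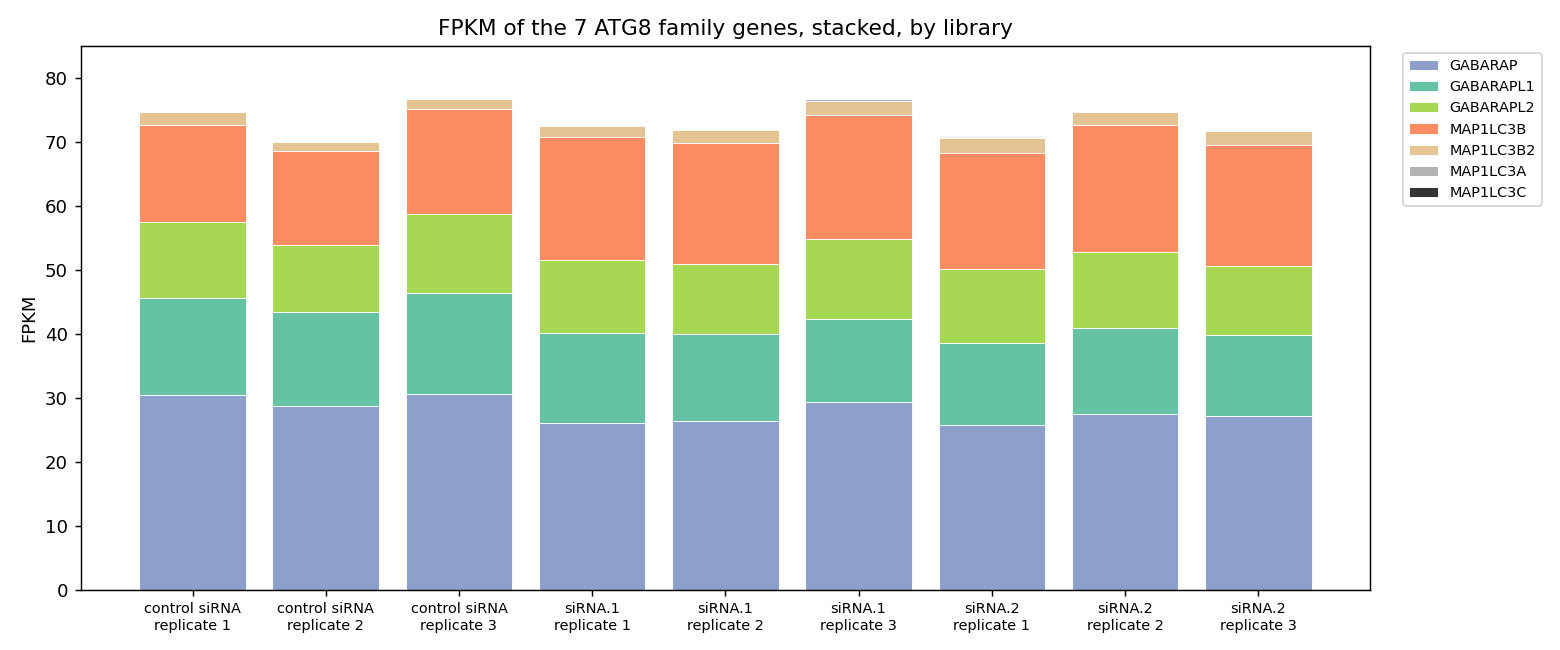
Stacked FPKM of the 7 ATG8 family genes in each of the 9 libraries; the height of a bar is their sum. The sums lie between 70.0 and 76.8 FPKM, while the MAP1LC3B segment grows from 14.7 to 16.3 FPKM in control to 18.1 to 19.7 with the siRNAs.

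SQSTM1 (chr5:179806398-179838078, plus strand) encodes the receptor that links ubiquitinated cargo to ATG8 proteins and is itself consumed by autophagy. It measured 12.04, 11.03 and 12.17 FPKM in control, 17.01, 15.84 and 15.80 with siRNA.1, and 11.30, 12.87 and 12.16 with siRNA.2. The siRNA.1 libraries stood above the other 6, and the siRNA.2 libraries overlapped control. On the log2 scale SQSTM1 differed from control by 0.44 with siRNA.1 (SE 0.056, interval 0.33 to 0.55, adjusted p = 1.69e-13, edgeR), or 135.4% of control. With siRNA.2 it was 0.03 (interval -0.08 to 0.14, adjusted p = 0.741, edgeR), an interval that lies wholly below that of siRNA.1. The direct difference between the siRNAs was -0.41 (SE 0.055, interval -0.51 to -0.30, adjusted p = 2.50e-11, edgeR), and it stayed between -0.46 and -0.35 and past the threshold in all 19 alternatives. Exons of MRNIP on the opposite strand cover 21.0% of SQSTM1's exonic bases, at a mean of 1.19 FPKM for MRNIP. Those of MGAT4B (12.9 FPKM) cover 1.39%. Without strand information, reads over either stretch cannot be assigned.

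NBR1 (chr17:43170481-43211689, plus strand) encodes a receptor of the same domain plan that works with SQSTM1 on ubiquitin condensates. It measured 11.44, 10.76 and 10.91 FPKM in control, 11.76, 11.99 and 10.78 with siRNA.1, and 11.20, 11.57 and 11.01 with siRNA.2. All groups overlapped. NBR1 had log2 fold changes of 0.03 with siRNA.1 (interval -0.08 to 0.14, adjusted p = 0.739, edgeR) and 0.02 with siRNA.2 (interval -0.09 to 0.13, adjusted p = 0.873, edgeR). The ratio of SQSTM1 to NBR1 was 1.06 ± 0.0464 (SD, n = 3) in control, 1.41 ± 0.0785 with siRNA.1 and 1.08 ± 0.0576 with siRNA.2. The siRNA.1 ratio gave p = 0.1 against each of the other groups in a two-sided exact permutation test, the smallest possible with 3 against 3, so no call can be made from it.

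Of the 16 receptor genes, 5 were higher and 2 lower with siRNA.1, and 1 was higher and 3 lower with siRNA.2. In either direction that is 43.75% and 25% of them, against 30.3% and 30.9% of all tested genes. Among genes averaging 1 FPKM or more, 44.8% and 45.9% passed. BNIP3L (NIX), a receptor for mitochondria, was lower with both siRNAs, at 14.93, 15.03 and 15.18 FPKM in control, 9.63, 9.70 and 10.42 with siRNA.1, and 9.62, 9.28 and 9.09 with siRNA.2. All 6 siRNA libraries were below control, with log2 fold changes of -0.63 (adjusted p = 2.58e-16, edgeR) and -0.70 (adjusted p = 1.17e-20). With siRNA.1 the higher genes were SQSTM1, OPTN (0.14), BNIP3 (0.29), BCL2L13 (0.36) and RETREG1, a receptor for the endoplasmic reticulum (1.11), and TOLLIP was lower (-0.42). With siRNA.2 RETREG1 was higher (0.56), and TAX1BP1 (-0.14) and the ferritin receptor NCOA4 (-0.24) were lower beside BNIP3L. RETREG1 was low in level, at a mean of 0.437 FPKM.

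TFEB (chr6:41683978-41736259, minus strand) encodes the transcription factor of the MiT/TFE family that is held in the cytoplasm when mTORC1 is active. It measured 1.13, 0.94 and 0.75 FPKM in control, 0.97, 0.95 and 0.53 with siRNA.1, and 0.62, 0.64 and 0.57 with siRNA.2. The siRNA.2 libraries were below all control libraries, whereas siRNA.1 overlapped control and its replicate 3 was the lowest library of the 9. The counts were 62 to 116 per library. The log2 fold change was -0.63 with siRNA.2 (SE 0.19, interval -1.01 to -0.25, adjusted p = 0.00489, edgeR), or 64.5% of control. This call was lost without control replicate 1 (-0.48, adjusted p = 0.0868, edgeR) and with limma on log2(FPKM + 0.1) (-0.54, adjusted p = 0.152) or log2(FPKM + 1) (-0.26, adjusted p = 0.150). With siRNA.1 the value was -0.23 (interval -0.60 to 0.15, adjusted p = 0.418, edgeR), and 0.0092 without its replicate 3. The direct difference between the siRNAs was -0.41 (adjusted p = 0.193, edgeR), and -0.64 without siRNA.1 replicate 3 (adjusted p = 0.0303).

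The related factors TFE3 and MITF were lower with both siRNAs. TFE3 measured 7.89, 8.84 and 8.41 FPKM in control, 7.31, 6.99 and 7.42 with siRNA.1, and 7.32, 7.20 and 7.32 with siRNA.2, and its log2 fold changes were -0.24 (adjusted p = 0.0226, edgeR) and -0.21 (adjusted p = 0.0400). MITF measured 1.93, 1.74 and 1.45 FPKM in control, 1.17, 1.19 and 1.08 with siRNA.1, and 1.14, 1.06 and 1.01 with siRNA.2, and its log2 fold changes were -0.60 (adjusted p = 0.000303, edgeR) and -0.68 (adjusted p = 1.99e-05). For both factors all siRNA libraries were below all control libraries. Of the 6 factors listed, 0 were higher and 2 lower with siRNA.1, and 1 was higher and 4 lower with siRNA.2. In either direction that is 33.3% and 83.3% of the 6, against 30.3% and 30.9% of all tested genes. For genes averaging 1 FPKM or more the shares were 44.8% and 45.9%. FOXO3 (-0.20) fell with siRNA.2 and FOXO1, which also activates autophagy genes, rose (0.43).

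Of the 7 genes that control MiT/TFE factors or respond to them, 6 were tested. RRAGC, a GTPase that brings TFEB to mTORC1 at the lysosome, was lower with both siRNAs, at 5.77, 5.29 and 5.67 FPKM in control, 4.36, 4.95 and 4.51 with siRNA.1, and 3.42, 3.10 and 3.23 with siRNA.2. The groups did not overlap, siRNA.2 being lowest, and the log2 fold changes were -0.31 (adjusted p = 0.00850, edgeR) and -0.79 (adjusted p = 6.97e-14). FNIP2 was higher with siRNA.1 (0.38, adjusted p = 0.0236, edgeR), and FLCN, FNIP1, RRAGD and MCOLN1 passed in neither comparison. In either direction 33.3% and 16.7% of the 6 passed, against 30.3% and 30.9% of all tested genes. For genes averaging 1 FPKM or more the shares were 44.8% and 45.9%.

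The last step is fusion with the lysosome. Of 10 fusion genes, 2 were higher (EPG5, 0.23, and RAB7A, 0.16) and 2 lower with siRNA.1 (SNAP29, -0.26, and TECPR1, -0.30). With siRNA.2, 0 were higher and 5 lower (SNAP29, -0.23, TECPR1, -0.53, STX17, -0.56, VAMP8, -0.24, and PLEKHM1, -0.41). In either direction that is 40% and 50% of the 10, against 30.3% and 30.9% of all tested genes. For genes averaging 1 FPKM or more, as all 10 do, the shares were 44.8% and 45.9%. Genes for lysosomal proteins had more members lower than higher with both siRNAs. Of these 35, 3 were higher and 15 lower with siRNA.1, and 4 higher and 16 lower with siRNA.2, with median log2 fold changes of -0.10 and -0.09. Of all tested genes, 15.0% were higher and 15.2% lower with siRNA.1, and 15.8% and 15.1% with siRNA.2. All 35 average more than 1 FPKM, a level at which more genes pass. In either direction 51.4% and 57.1% of the 35 passed, against 44.8% and 45.9% of genes averaging 1 FPKM or more. Shares by direction at that level were not computed. Cathepsin L (CTSL) was the highest of those passing with both siRNAs (0.52, adjusted p = 8.26e-20, and 0.58, adjusted p = 4.75e-25, edgeR), and the carboxypeptidase gene SCPEP1 the lowest (-0.78, adjusted p = 3.11e-19, and -0.65, adjusted p = 2.51e-14). Over all 111 tested genes of the 10 lists, 44 passed with siRNA.1 (17 higher, 27 lower), 47 with siRNA.2 (10 higher, 37 lower) and 20 between the siRNAs (5 higher, 15 lower with siRNA.2). That is 39.6%, 42.3% and 18.0% of the lists, where 30.3%, 30.9% and 12.2% of all tested genes and 44.8%, 45.9% and 19.3% of those averaging 1 FPKM or more passed. The lists' shares lie between these backgrounds, and some list genes average under 1 FPKM.

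**Figure D4:**
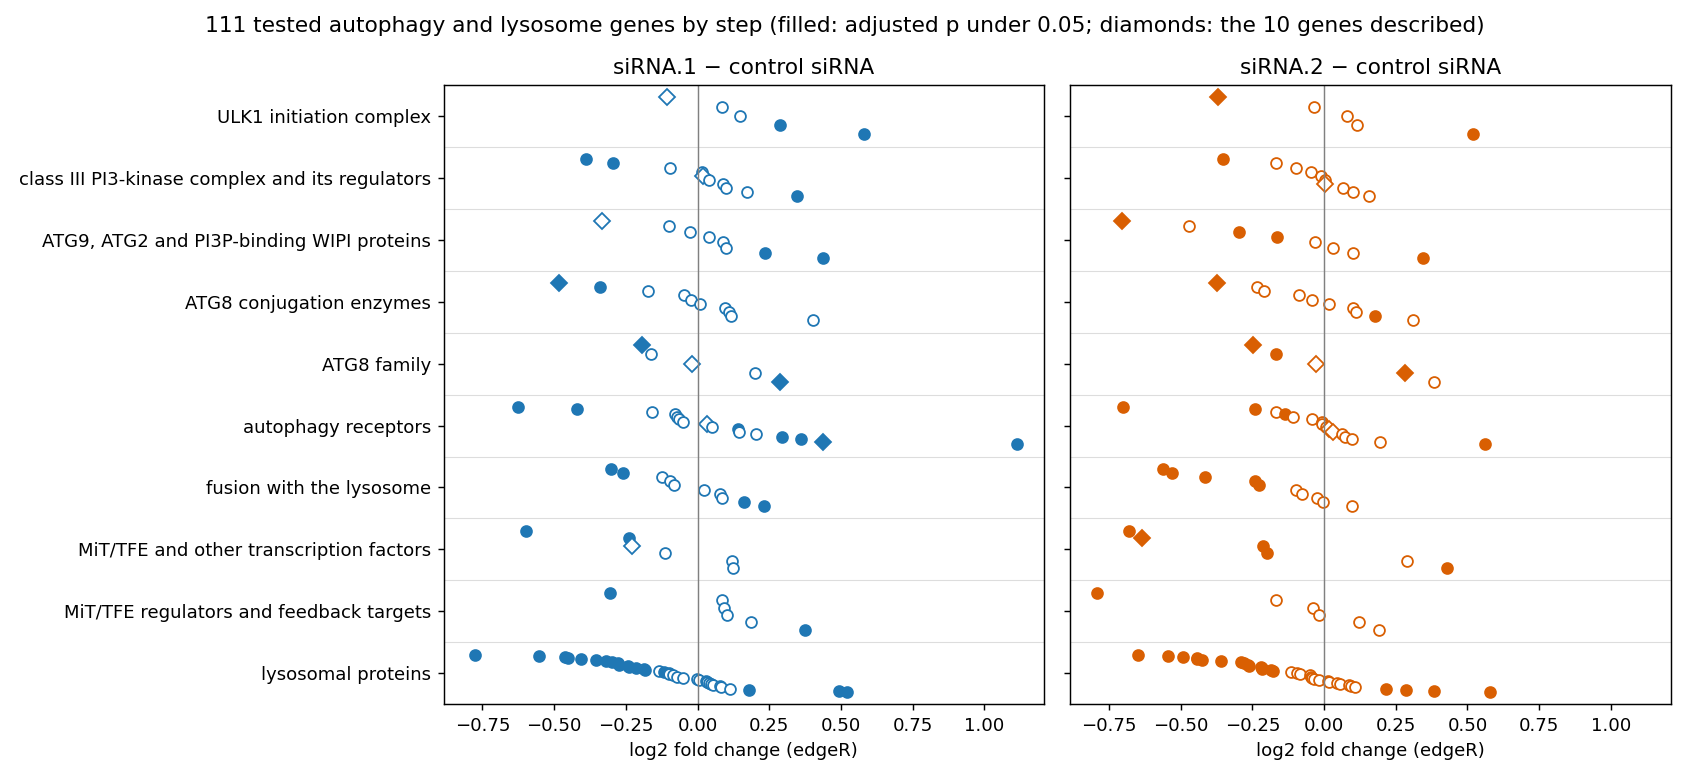
log2 fold changes (edgeR) of the 111 tested autophagy and lysosome genes, grouped by step, with siRNA.1 (left) and siRNA.2 (right) against control; each point is a gene, filled points have an adjusted p under 0.05 and diamonds are the 10 genes. With siRNA.1 17 filled points lie right of 0 and 27 left, and with siRNA.2 10 right and 37 left.

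SQSTM1 was the only one of the 10 genes to differ between the siRNAs, and 19 other genes of the lists did so as well. STX17, the SNARE on closed autophagosomes, had the largest of these differences and was singled out after its values were seen. It measured 7.78, 6.97 and 7.17 FPKM in control, 7.64, 7.96 and 8.08 with siRNA.1, and 5.16, 4.58 and 5.23 with siRNA.2. The siRNA.2 libraries were below all others, with a log2 difference from siRNA.1 of -0.64 (SE 0.067, interval -0.78 to -0.51, adjusted p = 1.01e-19, edgeR).

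**Figure D5:**
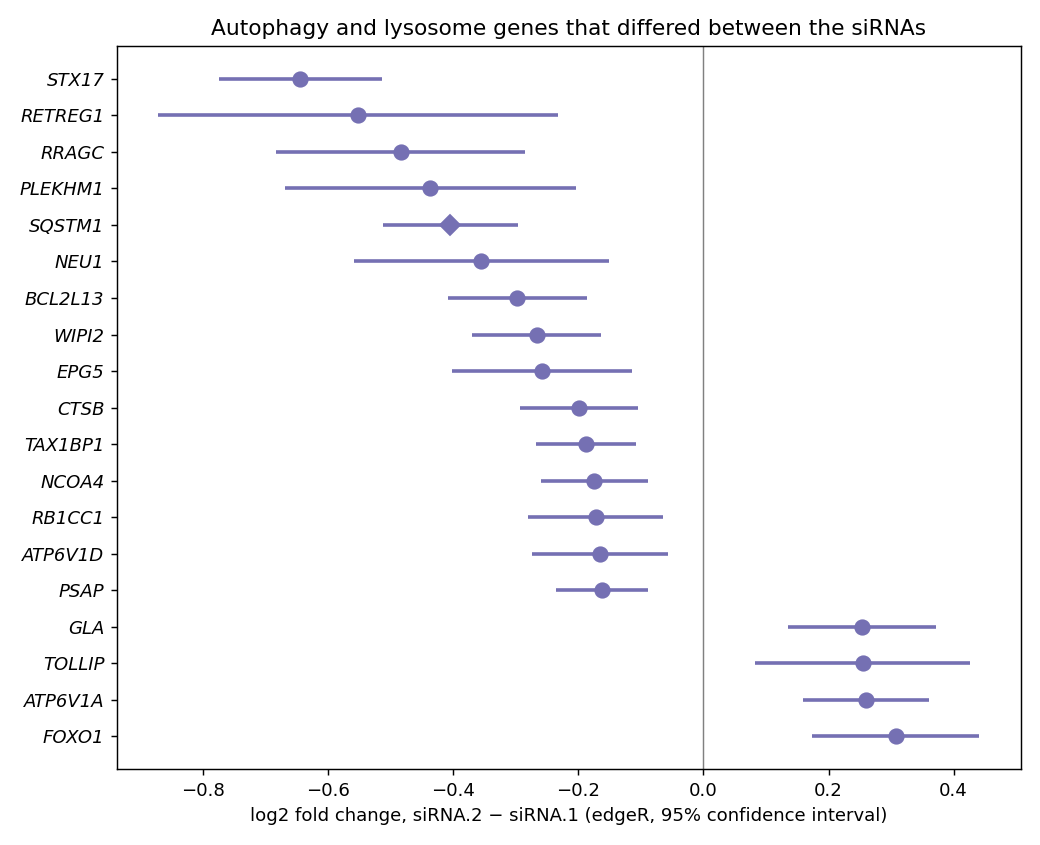
log2 fold change of siRNA.2 against siRNA.1 (edgeR) with 95% confidence intervals for 19 of the 20 autophagy and lysosome genes that passed in that comparison; the diamond is SQSTM1. The 15 genes lower with siRNA.2 range from -0.64 (STX17) to -0.16 (PSAP), and the higher genes reach 0.31 (FOXO1).

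For the 3 genes that passed with both siRNAs, the gene with the most similar profile over the 9 libraries was looked up among 11867 genes, as Pearson's r of log2 CPM. For MAP1LC3B this was NCLN (r = 0.981), for GABARAPL1 VAMP2 (r = 0.983) and for ATG5 FH (r = 0.973). The libraries fall into 3 conditions, so these values mostly describe likeness of condition means.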

How the data were processed

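Poly(A)+ RNA from 9 libraries of TE13 cells was sequenced by the authors, checked with FastQC, aligned with STAR to GRCh38 and counted per gene with featureCounts. Their versions, the annotation release and the strand setting are not given in the sources used here. The authors deposited raw counts per gene and FPKM, together with an exonic length, in a single table. Total counts of 15337917 to 22559998 per library set the precision. The design text calls the 3 libraries of a condition biological replicates, and the labels do not say how cultures were separated, so p-values measure the spread between these libraries. Libraries of 1 condition differed by more than sampling noise (chi-square per degree of freedom 2.73 to 4.40).

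Counts were tested with edgeR 4.0.16 (R 4.3.3; quasi-likelihood F test, TMM scaling) over the 21395 genes averaging 0.1 FPKM or more, in 1 fit of the 3 conditions without covariates. P-values were adjusted by Benjamini-Hochberg over all of these genes, with a threshold of 0.05. DESeq2 1.42.0 (the tool the methods name) and limma 3.58.1 served as alternatives, with other scalings, filters, a replicate block and each library left out in turn, 19 in all. The tests were tried on simulated data. The 10 genes, the 10 lists (114 genes, written from general knowledge) and the marker lists were chosen with earlier results of these data known. Other genes named are, per list, those with the largest and smallest log2 fold change among genes that passed with both siRNAs and averaged 1 FPKM or more, the remaining ATG8 genes, TFE3, MITF, LINC00885 and cell type markers. Any further gene was named after its values were seen, and 1 list gene that differed between the siRNAs is not reported here. Overlapping exons and shared stretches of 50 bases were taken from GENCODE release 44, in which all 10 genes have the deposited start and end.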

Additional observations from a re-analysis of the deposited data

Results flagged for a closer look

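Of the autophagy and lysosome genes, 20 were set apart by the direct test of siRNA.2 against siRNA.1 (edgeR, adjusted p under 0.05), meaning that the change from control differed between the siRNAs. These are 18.0% of the tested list genes. Of all tested genes 12.2% passed this test, and of those averaging 1 FPKM or more 19.3%. Among cargo receptors the log2 difference was -0.41 for SQSTM1, -0.19 for TAX1BP1, -0.55 for RETREG1, -0.17 for NCOA4 and -0.30 for BCL2L13, all lower with siRNA.2, and 0.25 for TOLLIP. Among genes that act earlier it was -0.17 for RB1CC1 and -0.27 for WIPI2. Among fusion genes it was -0.64 for STX17, -0.26 for EPG5 and -0.44 for PLEKHM1. Among transcription factors and their regulators it was 0.31 for FOXO1 and -0.48 for RRAGC.

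Among lysosomal proteins the cathepsin gene CTSB (-0.20), the sialidase gene NEU1 (-0.36), the saposin precursor gene PSAP (-0.16) and the proton pump subunit gene ATP6V1D (-0.16) were lower with siRNA.2. The galactosidase gene GLA (0.25) and the pump subunit gene ATP6V1A (0.26) were higher. ULK1, WIPI1 and TFEB, which passed against control with siRNA.2 and not with siRNA.1, did not pass this direct test.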

How the results depend on the processing

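Under 19 alternatives (scaling, filter, tool, pseudocount, samples in the fit, replicate block and each library left out in turn), the count of the 10 genes past the threshold was 3 to 4 with siRNA.1, 5 to 6 with siRNA.2 and 1 to 2 between the siRNAs. The 2 came without siRNA.1 replicate 3 or without siRNA.2 replicate 2, with a range of 1 to 2 over libraries left out. Over the lists, 36 to 46, 39 to 48 and 14 to 24 genes passed. Among all tested genes, 5255 to 6516, 5302 to 6713 and 1414 to 2696 passed. The number tested ranged from 16852 to 32991 by setting, so the background of these counts moved as well. Of 570 values of single genes, 533 kept their direction and side of the threshold, 5 lost it, 2 gained it and 30 changed sign.

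No value that changed sign had passed, and the reported values of all these but TFEB with siRNA.1 (-0.23) ranged from -0.0287 to 0.0321. For BECN1 with siRNA.2 these were -0.0040 with DESeq2 size factors, -0.00073 after edgeR's own filter, -0.0037 with DESeq2 and -0.00040 on the compared conditions only. For GABARAPL2 with siRNA.1 they were 0.0067 with library totals alone, 0.0082 with limma on log2(FPKM + 0.1) and 0.0075 on log2(FPKM + 1). With each library left out in turn, values ranged from -0.087 to 0.039 (GABARAPL2), -0.052 to 0.083 (BECN1) and -0.38 to 0.0092 (TFEB) for siRNA.1. For siRNA.2 they ranged from -0.019 to 0.090 (SQSTM1), -0.0086 to 0.044 (NBR1), -0.096 to 0.031 (GABARAPL2) and -0.024 to 0.059 (BECN1). Between the siRNAs they ranged from -0.060 to 0.0077 (NBR1), -0.040 to 0.039 (MAP1LC3B), -0.060 to 0.049 (GABARAPL2) and -0.077 to 0.057 (BECN1). The cause was not tested.

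With a replicate block, 4, 6 and 1 of the 10 genes and 44, 44 and 20 list genes passed. In that fit 6215, 6359 and 2342 of all 21395 tested genes passed. Same-numbered libraries correlated between -0.194 and 0.107 in their deviations over 11156 genes. So few libraries per condition cannot decide whether same-numbered libraries were prepared together. Depth limits TFEB, WIPI1 and ULK1 most, at 62 to 357 counts per library.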
